A study of Mus musculus with 4 samples.

Results

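The genes described here encode focal adhesion kinase (FAK, gene Ptk2), its paralog PYK2 (Ptk2b) and 8 proteins that work with them: Src, Bcar1, Pxn, Crk, Crkl, Grb2, Dock1 and Git1. They were taken by gene name from a table of 52636 genes, and all 10 names were found. The cells were Myc-CaP, a mouse prostate cancer line whose strain is labelled FVB, Hi-Myc transgenic. They stably carried either shRNAs against FAK (shFAK) or a negative control shRNA (shNC), and each line was given 10 µM norepinephrine or its vehicle for 24 h. The 2 lines and 2 treatments made 4 groups, with 1 library in each. How many hairpins, pools or clones made up each line is not stated in the labels.

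With 1 library per group no difference has a replicate check. A difference between the lines also cannot be told apart from any other difference between the cultures that gave the 2 libraries of a pair. In bulk RNA, fewer cells with a transcript and less of it per cell cannot be told apart. Levels are CPM, counts scaled to a library size that the TMM method has adjusted, and ratios are of CPM. Each interval is an exact 99% counting interval, which covers counting error only. No molecular identifiers are described, so PCR copies may be among the counts.

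FAK is a cytoplasmic tyrosine kinase that gathers at focal adhesions, the sites where integrins tie the cell to its matrix. Clustered integrins let FAK phosphorylate itself, and the new phosphotyrosine binds Src, which then phosphorylates FAK, the CAS scaffold (Bcar1) and paxillin (Pxn). CRK adaptors dock on these scaffolds and bring the exchange factor DOCK1 to Rac, GRB2 links the complex to Ras, and GIT1 links it to PIX and PAK. The complex is known for its part in cell spreading, migration and survival. RNA levels do not measure the phosphorylation through which it signals.

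Library totals ran from 23410486 to 29948640 counts, and 12351 genes had a CPM of at least 1 in at least 1 library. Of the 10 genes, 9 were among these, and Dock1 was not. Ratios moved with gene length across these genes, with Spearman correlations of 0.32 and 0.47 for the hairpin pairs (vehicle and norepinephrine) and -0.49 and -0.29 for the norepinephrine pairs (shNC and shFAK). Values from which the trend with gene length and GC content was removed are called detrended here, and are given for most genes named. The fit also shifts each library as a whole. Detrended, the median hairpin ratio of all genes was -0.0359 (vehicle) and -0.0558 (norepinephrine), against 0.0034 and 0.0243 as counted. The median norepinephrine ratio was 0.0092 (shNC) and -0.02 (shFAK) detrended. In shFAK under norepinephrine 23121 genes had at least 1 count, against 20442 to 21678 in the other libraries. Of 9 luminal prostate markers, 5 were above a CPM of 1 in every library, among them Foxa1 and Hoxb13. Krt8, a luminal keratin, had 153 and 165 counts in shNC (vehicle and norepinephrine) and 50 and 48 in shFAK, and its part in the results below was not tested. The epithelial markers Krt18, Epcam and Cdh1 had at most 15 counts in any library. Endothelial markers summed to at most 0.225 CPM and leukocyte markers to at most 0.3 CPM. Of 6 fibroblast markers, Pdgfra alone was above a CPM of 1 in every library, and Dcn and Lum were at 0.

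The coding sequences of the paralogs were compared for runs of identical bases. Untranslated sequence and inexact runs were left out of this comparison, so it does not show how far a hairpin could be shared. The longest run of identical bases between the longest annotated coding sequences of Ptk2 (3165 bases) and Ptk2b (3027 bases) was 25 bases. They had 8 words of 21 bases in common, counted at every position. Crk (912 bases) and Crkl (909 bases) shared a longest run of 23 bases and 5 words of 21 bases. Each is printed 5′ to 3′ on the coding strand from GENCODE M21 (GRCm38) transcripts, with the shared run in capitals and 30 bases on each side in lower case.
Ptk2, coding bases 3056 to 3140: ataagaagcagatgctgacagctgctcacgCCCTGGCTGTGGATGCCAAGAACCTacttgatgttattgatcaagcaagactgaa
Ptk2b, coding bases 2915 to 2999: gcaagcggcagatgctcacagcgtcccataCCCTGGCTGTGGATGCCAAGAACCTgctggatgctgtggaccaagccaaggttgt
Crk, coding bases 508 to 590: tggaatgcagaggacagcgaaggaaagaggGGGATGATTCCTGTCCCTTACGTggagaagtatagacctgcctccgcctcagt
Crkl, coding bases 481 to 563: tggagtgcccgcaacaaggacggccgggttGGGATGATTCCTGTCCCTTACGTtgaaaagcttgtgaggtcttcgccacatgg
No stretch of at least 100 matching bases at 95% identity was found between any 2 of the 10 genes. The hairpin sequences were not used here.

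The kinases came first in the comparison of the lines, since Ptk2 was the hairpins' target and checks the labels. Ptk2 (ENSMUSG00000022607, mm10 chromosome 15, 73205105 to 73423191, minus strand) was at 119.7 CPM (vehicle) and 118.4 CPM (norepinephrine) in shNC, and at 48.8 and 51.95 CPM in shFAK. Both shFAK libraries were below both shNC libraries, in keeping with their labels. The shFAK level was 40.7% of shNC under vehicle (interval 37.4% to 44.3%) and 43.9% under norepinephrine (40.2% to 47.8%). Ptk2 was the only one of the 9 measured genes past the 2-fold size rule in a hairpin pair, which asks for a log2 ratio of at least 1 in size with an interval that leaves out 0. Over all genes tested this rule was met by 1.88% under vehicle, 3.25% under norepinephrine and 0.931% in both, of which the lower genes were 0.162%.

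Ptk2b (ENSMUSG00000059456, chromosome 14, 66153257 to 66281052, minus strand), the calcium-responsive relative of FAK, went the other way. It had 170 counts (vehicle) and 192 (norepinephrine) in shNC, and 236 and 276 in shFAK, or 5.74, 7.2, 8.89 and 11.5 CPM. Both shFAK libraries were above both shNC libraries. The hairpin log2 ratio was 0.63 under vehicle (0.25 to 1.02) and 0.67 under norepinephrine (0.32 to 1.03). Detrended, it was 0.53 and 0.45.

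Levels of the 2 kinases can be set side by side only per length. In CPM per kilobase, Ptk2 was at 24.0 (vehicle) and 23.7 (norepinephrine) in shNC and at 9.77 and 10.4 in shFAK. Ptk2b was at 0.776 and 0.973 in shNC and at 1.2 and 1.55 in shFAK. PYK2 thus made up 3.13% and 3.94% of the summed per-length level of the family in the shNC libraries, and 10.96% and 12.98% in the shFAK libraries. As a share of the reads of the 2 genes it went from 4.57% (exact 95% binomial interval 3.92% to 5.295%) in shNC vehicle to 15.4% (13.7% to 17.3%) in shFAK vehicle, and from 5.73% (4.97% to 6.57%) to 18.1% (16.2% to 20.1%) under norepinephrine. The summed per-length level was 24.8 and 24.7 CPM per kilobase in shNC and 10.97 and 11.96 in shFAK.

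**Figure D1:**
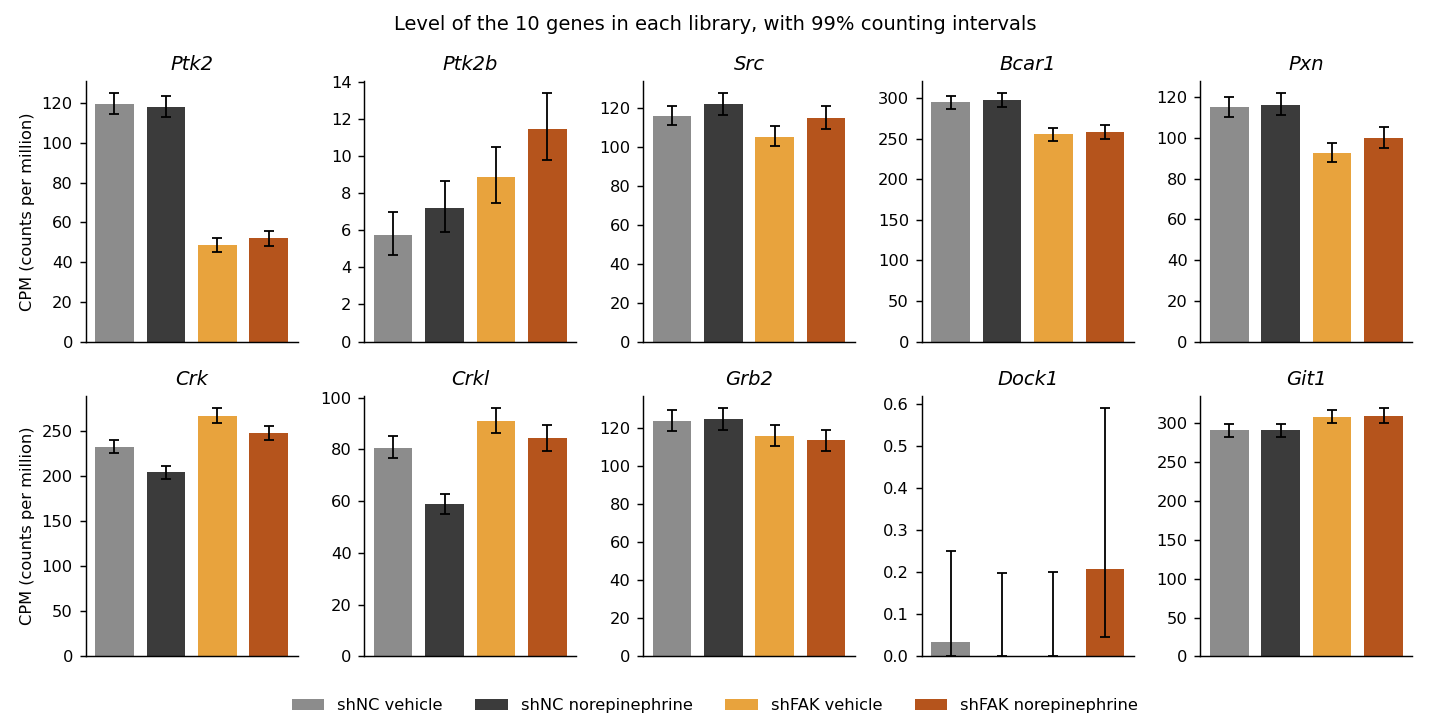
Level of each of the 10 genes in the 4 libraries, in CPM on axes that start at 0, with each bar 1 library and each whisker the exact 99% Poisson interval of its count. Ptk2 is low and Ptk2b high in both shFAK libraries, Crkl is lowest in shNC norepinephrine at 58.95 CPM, and Dock1 is at 0.208 CPM or less in every library.

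Src, the kinase that FAK recruits (ENSMUSG00000027646, chromosome 2, 157418444 to 157471862), was at 115.9 CPM (vehicle) and 121.7 CPM (norepinephrine) in shNC, and at 105.2 and 114.8 CPM in shFAK. These levels lie close together, and the shFAK libraries are both under the shNC libraries by a small margin. The hairpin log2 ratio was -0.14 under vehicle (-0.23 to -0.04) and -0.08 under norepinephrine (-0.18 to 0.01), so the second interval took in 0.

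The scaffolds Bcar1 and Pxn were lower in shFAK. Bcar1 (ENSMUSG00000031955, chromosome 8, 111710474 to 111743809), which encodes the CAS protein p130Cas, was at 294.8 CPM (vehicle) and 297.3 CPM (norepinephrine) in shNC, and at 255.7 and 258.1 CPM in shFAK. Its hairpin log2 ratio was -0.21 under vehicle (-0.27 to -0.14) and -0.20 under norepinephrine (-0.27 to -0.14). Pxn, paxillin (ENSMUSG00000029528, chromosome 5, 115506676 to 115555987), was at 115.2, 116.5, 92.9 and 100.3 CPM in the same order. Its ratios were -0.31 (-0.41 to -0.21) and -0.22 (-0.32 to -0.11), and -0.40 and -0.47 detrended. For both scaffolds the shFAK libraries lay under the shNC libraries without overlap.

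The CRK adaptors were higher in shFAK. Crk (ENSMUSG00000017776, chromosome 11, 75679259 to 75706908) was at 231.9 CPM (vehicle) and 203.6 CPM (norepinephrine) in shNC, and at 266.5 and 247.2 CPM in shFAK. Its hairpin log2 ratios were 0.20 (0.14 to 0.26) under vehicle and 0.28 (0.21 to 0.35) under norepinephrine. Detrended, these were 0.14 and 0.17. Crkl (ENSMUSG00000006134, chromosome 16, 17451987 to 17486255) was at 80.7, 58.95, 91.0 and 84.3 CPM in the same order. Its hairpin log2 ratio was 0.17 under vehicle (0.07 to 0.28) and 0.52 under norepinephrine (0.39 to 0.64). The shNC norepinephrine library was the low one for both adaptors.

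Grb2 (ENSMUSG00000059923, chromosome 11, 115644045 to 115708597), the adaptor to Ras, was at 123.7, 124.5, 115.8 and 113.3 CPM, with hairpin log2 ratios of -0.10 (-0.19 to -0.0046) and -0.14 (-0.23 to -0.04). Its counts are uncertain, because the gene Gm12791 matches it over 642 bases at 95% identity or more and the pseudogene Gm11702 lies inside it with 108 to 165 counts. With library size alone as the scaling its intervals no longer both left out 0. Git1 (ENSMUSG00000011877, chromosome 11, 77493562 to 77507786), a scaffold and GTPase-activating protein for Arf, was at 290.7, 290.9, 308.7 and 309.9 CPM. Its ratios were 0.09 (0.03 to 0.14) under vehicle and 0.09 (0.03 to 0.15) under norepinephrine, and 0.07 and -0.02 detrended. Under norepinephrine the median of all genes also moved, from 0.0243 as counted to -0.0558 detrended. Git1 was above that median both times, so its change of sign is not a change of place among genes.

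Dock1 (ENSMUSG00000058325, chromosome 7, 134670654 to 135173639), the exchange factor for Rac known as DOCK180, had 1 count (vehicle) and 0 counts (norepinephrine) in shNC, and 0 and 5 counts in shFAK. A count of 0 allows up to 3 counts, or 0.113 CPM in those libraries. No ratio is given for it. The shFAK norepinephrine library held 227 genes with at least 5 counts there and at most 1 in each other library, against 24 to 29 such genes in the others. Whether the 5 counts of Dock1 belong with these was not tested. Its relative Dock5 was at a mean of 154.2 CPM over the libraries, and the DOCK partners Elmo2, Elmo1 and Elmo3 at 48.4, 11.97 and 5.03 CPM.

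Ordered by mean level per length, the genes ran from Git1 (62.0 CPM per kilobase, range 60.1 to 64.1 over the libraries) through Bcar1 (60.8), Crk (50.2), Grb2 (40.9), Src (26.2), Crkl (20.4), Ptk2 (16.98) and Pxn (12.96) to Ptk2b (1.13) and Dock1. The ranges over the 4 libraries overlapped for the neighbours Git1 and Bcar1, Bcar1 and Crk, Crkl and Ptk2, and Ptk2 and Pxn. The other neighbours did not overlap. Ptk2b stood at the 14.7 percentile of the genes tested, and Git1 at the 91.7 percentile.

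Read together, the hairpin comparison gave 4 genes higher in shFAK in both pairs by the interval rule, in which both intervals leave out 0 on the same side: Ptk2b, Crk, Crkl and Git1. It gave 4 lower: Ptk2, Bcar1, Pxn and Grb2. These 8 of 9 measured genes compare with 33.7% of all genes tested, of which 17% were higher and 16.6% lower. In single pairs the intervals of 9 genes left out 0 under vehicle and of 8 under norepinephrine, against 41.9% and 53.5% of all genes. Where a mean CPM of 50 or more was asked for, which 8 of the 9 genes have, 55.4% of 4601 genes passed in both pairs. Without Ptk2, the other 8 genes had a median log2 ratio of -0.0046 under vehicle and 0.0039 under norepinephrine, against 0.0034 and 0.0243 over all genes tested. Apart from Ptk2, the ratios ran from -0.31 to 0.67. With library size alone the median of all genes under norepinephrine moved to 0.11, and the share of genes higher in both pairs to 22.3% and lower to 11.7%. Detrended, these shares were 9.85% and 20.6%, and the genes past the rule were then Ptk2b, Crk and Crkl (higher) and Ptk2, Bcar1, Pxn, Grb2 and Src (lower). The median of all genes was then -0.0359 under vehicle and -0.0558 under norepinephrine, so the detrended shares and calls also carry that shift.

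The quasi-likelihood test of edgeR, in an additive model of hairpin and treatment over the 4 libraries, called 5 of the 9 genes for hairpin at an adjusted p under 0.05, against 35.7% of all genes (19.5% higher and 16.2% lower). Ptk2 was at -1.24 ± 0.09 (SE; adjusted p = 3.78e-39), Pxn at -0.26 ± 0.09 (adjusted p = 0.0115), Ptk2b at 0.65 ± 0.13 (adjusted p = 9.39e-06), Crkl at 0.34 ± 0.09 (adjusted p = 0.000911) and Crk at 0.24 ± 0.09 (adjusted p = 0.0202). Bcar1 missed the threshold at -0.20 ± 0.09 (adjusted p = 0.0506), and Grb2, Src and Git1 had adjusted p of 0.315, 0.338 and 0.446. The model has 1 residual degree of freedom, and its error is the departure from equal responses in the lines, pooled over genes, not the spread between cultures. It takes the same hairpin ratio under both treatments, so the value for Crkl averages 0.17 under vehicle and 0.52 under norepinephrine. The Wald test of DESeq2 on the same model called Ptk2 alone, against 13.5% of all genes. Its adjusted p was 0.0641 for Ptk2b, 0.0526 for Crkl, 0.0772 for Pxn and 0.0896 for Crk. In edgeR, Pxn missed the threshold with library size alone (adjusted p = 0.0771) and Crk when detrended (adjusted p = 0.0842), whereas Bcar1 passed when detrended (adjusted p = 0.00605). Without the CPM filter edgeR gave adjusted p of 0.0995 for Pxn, 0.111 for Crk, 0.0942 for Crkl and 0.000911 for Ptk2, and called 5.95% of all genes. Its test against a 1.2-fold threshold called Ptk2 and Ptk2b alone, and 9.29% of all genes.

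**Figure D2:**
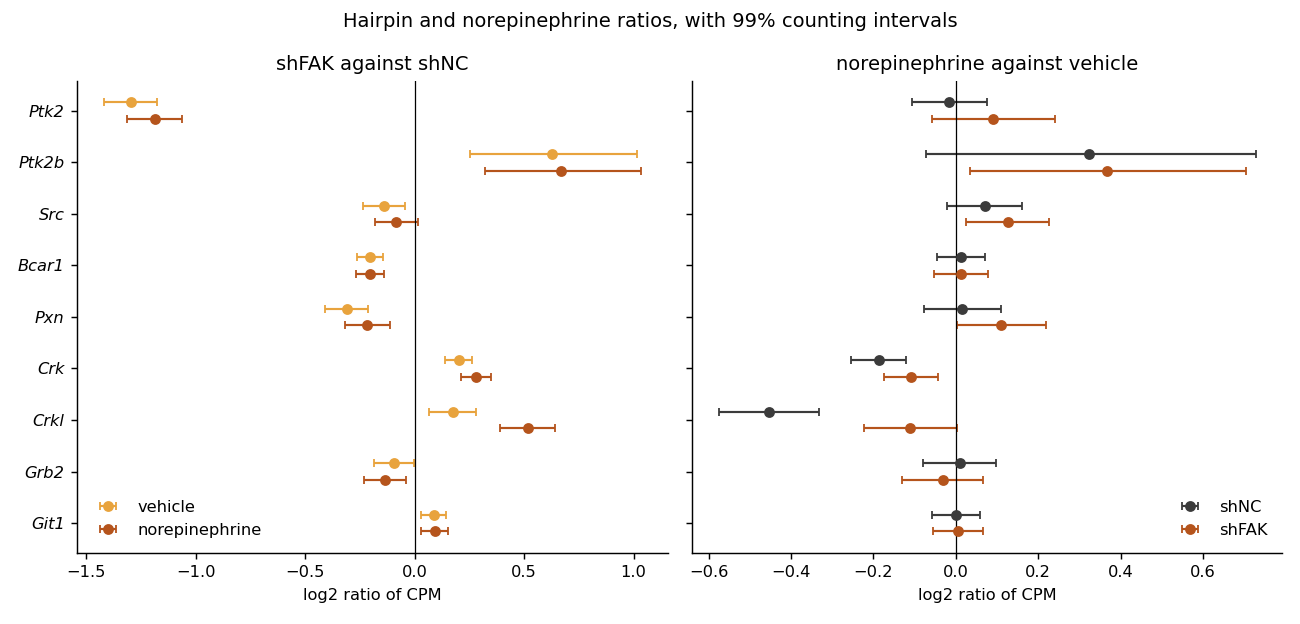
Log2 ratios of CPM for the 9 measured genes, on the left shFAK against shNC under vehicle and norepinephrine, on the right norepinephrine against vehicle in each line, with points for ratios and whiskers for 99% counting intervals. Ptk2 lies at -1.29 and -1.19 and Ptk2b at 0.63 and 0.67 in the hairpin pairs, and Crkl has the lowest norepinephrine ratio, at -0.45 in shNC.

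The norepinephrine comparison asked whether the catecholamine changed these genes in either line. The clearest values were those of the CRK adaptors. Crkl went from 2390 to 1572 counts in shNC, 73.1% of the vehicle level (67.2% to 79.5%), and from 2415 to 2025 in shFAK, 92.6% (85.7% to 100.1%). Its log2 ratio was -0.45 in shNC (-0.57 to -0.33) and -0.11 in shFAK (-0.22 to 0.0019), so only the shNC interval left out 0. Crk was at -0.19 in shNC (-0.26 to -0.12) and -0.11 in shFAK (-0.17 to -0.04), the only 1 of the 9 genes past the interval rule in both norepinephrine pairs, which 16.9% of all genes passed and 33.6% of those with a mean CPM of 50 or more. In single pairs the count was 2 genes in shNC (44.5% of all genes) and 4 in shFAK (22.7%). Detrended, Crk was at -0.09 and -0.06 and no longer passed in both, whereas Crkl was at -0.44 and -0.11.

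The other genes had no interval on 1 side of 0 in both lines. Ptk2 was at -0.02 in shNC (-0.11 to 0.08) and 0.09 in shFAK (-0.06 to 0.24). Ptk2b was at 0.32 (-0.07 to 0.73) and 0.37 (0.03 to 0.71), with wide intervals because of its low counts. Src was at 0.07 (-0.02 to 0.16) and 0.13 (0.03 to 0.23), and at -0.04 and -0.06 detrended. Pxn was at 0.02 (-0.08 to 0.11) and 0.11 (0.0038 to 0.22), and at 0.07 and 0.0005 detrended. Bcar1, Grb2 and Git1 had ratios from -0.03 to 0.01 in both lines, and all 6 of their intervals took in 0. Detrended, Bcar1 was at -0.10 and -0.18 and Git1 at -0.08 and -0.17, and these 2 genes then passed the rule. Over all genes, 6.42% were then lower and 3.47% higher in both pairs. None of the 9 genes met the 2-fold size rule in either norepinephrine pair, which 0.858% and 0.874% of all genes met. The edgeR test called Crkl alone for norepinephrine (-0.28 ± 0.09, adjusted p = 0.0221), against 12.3% of all genes (5.04% higher and 7.29% lower). Ptk2b had 0.35 ± 0.13 (adjusted p = 0.0588). The model takes the same response in both lines, so the value for Crkl averages unlike ratios, -0.45 in shNC and -0.11 in shFAK. DESeq2 called none of the 8 genes to which it gave an adjusted p (Ptk2b had none), against 0.704% of all genes. Of the 9, 1 had an unadjusted p under 0.05, and the adjusted p for Crkl was 0.254.

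**Figure D3:**
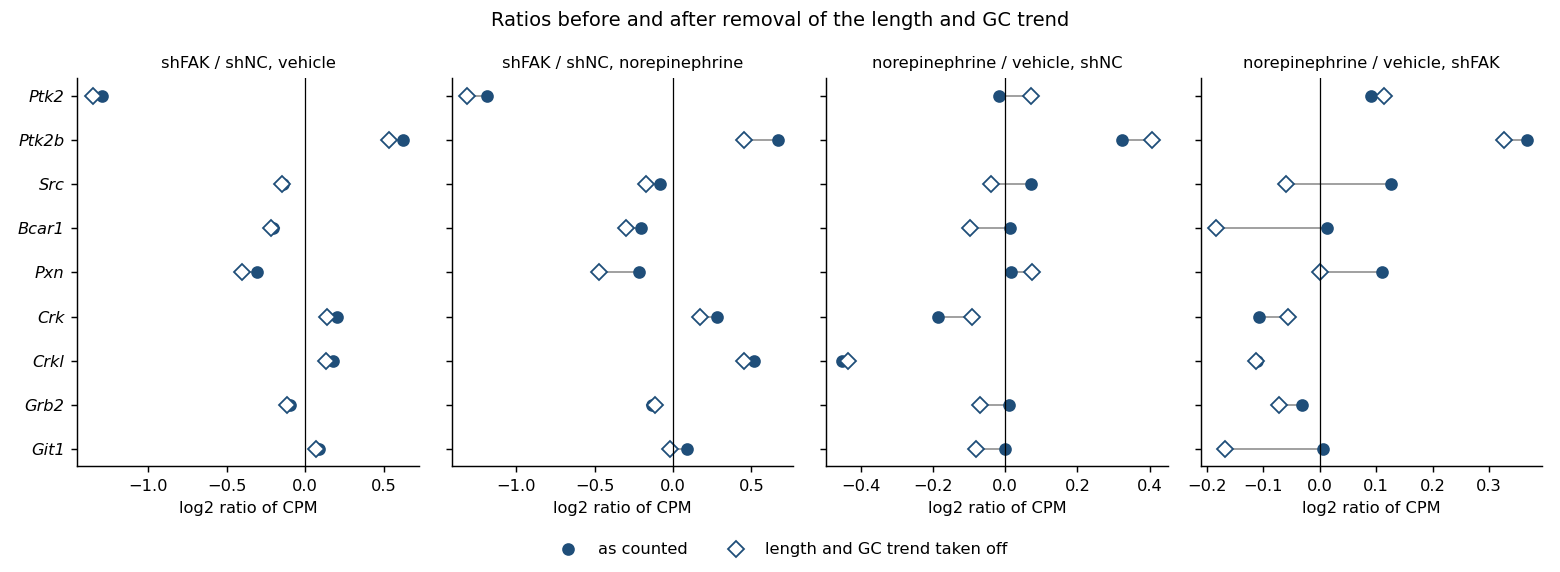
Log2 ratios of the 9 measured genes in the 4 pairs of libraries, as counted (filled circles) and after removal of the spline fitted on gene length and GC content (open diamonds). In the hairpin panels Git1 alone changes side of 0, under norepinephrine. Src, Bcar1 and Git1 change side in both norepinephrine panels, and Ptk2 and Grb2 in the shNC panel.

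The design also sets the norepinephrine responses of the lines against each other. Crkl was the only 1 of the 9 genes for which the interval of that difference left out 0, at 0.34 on the log2 scale for shFAK minus shNC (99% interval 0.18 to 0.51, normal approximation), against 23% of all genes. Crk was at 0.08 (-0.015 to 0.17), Ptk2 at 0.11 (-0.07 to 0.28) and Ptk2b at 0.04 (-0.47 to 0.55). The remaining 5 genes had differences from -0.04 to 0.09. As a share of the reads of Crk and Crkl, Crkl made up 25.8% under vehicle (exact 95% binomial interval 24.9% to 26.7%) and 22.45% under norepinephrine (21.5% to 23.45%) in shNC. In shFAK it made up 25.5% (24.6% to 26.35%) and 25.4% (24.5% to 26.4%). The shNC norepinephrine library is the one that stands apart, and its part in the Crkl difference was not tested, since each difference of this kind needs that library. Detrended, the Crkl difference was 0.32, and those of the other 8 genes ran from -0.09 to 0.04.

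To place the complex among its wider pathway, 59 other genes were listed by role, of which 50 were measured. By the interval rule, 16 of the 50 were higher and 6 lower in shFAK in both pairs, against 17% and 16.6% of all genes. Together these were 44% of the list, against 33.7% of all genes and 55.4% of those with a mean CPM of 50 or more. Well-expressed genes thus pass the rule more often, which bears on each role group below. For the 50 listed genes the hairpin medians follow. Their median log2 ratio was 0.08 under vehicle and 0.17 under norepinephrine, against 0.0034 and 0.0243 over all genes. Detrended, 7 were higher and 10 lower, against 9.85% and 20.6% of all genes. Of the 28 measured genes that match no other annotated gene, 7 were higher and 2 lower as counted. The 17% and 16.6% are over all genes, with or without a match. Of the listed genes named in the text, Yes1, Bcar3, Elmo1, Elmo3, Pak2, Rock1, Arhgef12, Pik3cb and Rb1cc1 match another annotated gene. None of the 50 met the 2-fold size rule in any pair.

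Among Src family kinases and their inhibitor, Yes1 had hairpin log2 ratios of 0.33 under vehicle and 0.46 under norepinephrine, 0.19 and 0.21 detrended, and matches another annotated gene. Fyn was at 0.21 and 0.09. Csk, the kinase that inactivates Src, was at -0.10 and -0.17. None of the 4 measured CAS genes passed the rule. Of these Nedd9, the CAS relative HEF1, was at 0.26 and 0.66, Bcar3 at 0.24 and 0.17 and Efs at -0.14 and -0.07. The paxillin relatives Tgfb1i1 and Lpxn had 4 to 16 counts per library and were not tested, which leaves Pxn as the family member with counts to compare. Lck and Fgr, Src family kinases of blood cells, had at most 12 counts in any library.

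Of 8 measured adaptors and their exchange factors, 3 were higher and 1 lower, against 17% and 16.6% of all genes. Detrended, 1 was higher and 1 lower, against 9.85% and 20.6%. The Ras exchange factors that GRB2 carries were among the 3 higher as counted, with Sos2 at 0.54 and 0.52 and Sos1 at 0.17 and 0.56. Detrended, these were 0.41 and 0.24 for Sos2 and 0.01 and 0.27 for Sos1. Grb7, which binds FAK through its SH2 domain, had 19 to 44 counts per library and ratios of -0.98 and -0.37. Of the DOCK and ELMO genes, Elmo1 passed the rule at 0.31 and 0.51, with detrended values of 0.14 and 0.13 that no longer passed it. Elmo3 was at -0.52 and 0.22 and Dock5 at -0.05 and 0.19, or -0.21 and -0.18 detrended. Of the GIT, PIX and PAK genes, Arhgef7, the PIX protein that binds GIT1, was at -0.23 and -0.14 (-0.42 and -0.55 detrended), Pak4 at -0.16 and -0.14, and Pak2 at 0.09 and 0.20. Pak2 changed side of 0 when detrended, to -0.0125 and -0.0085, but stayed above the medians of all genes, which were then -0.0359 and -0.0558.

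Small GTPases with their effectors, exchange factors and GTPase-activating proteins gave 7 of 14 higher and 2 lower in both pairs, against 17% and 16.6% of all genes. Detrended, 3 were higher (Trio, Rock1 and Rock2) and 3 lower, against 9.85% and 20.6%. Trio, an exchange factor for Rac and RhoA, had ratios of 0.47 and 0.83, and 0.32 and 0.50 detrended. The RhoA effector kinases Rock2 and Rock1 were at 0.45 and 0.52, and at 0.33 and 0.60. Detrended, Rock2 was at 0.25 and 0.12, and Rock1 at 0.22 and 0.40. Of the PI3K subunits, Pik3cb was at -0.40 and -0.32 (-0.50 and -0.55 detrended), Pik3r1 at -0.27 and -0.20 (-0.42 and -0.52 detrended, when it passed the rule), and Pik3ca at 0.07 and 0.28, or -0.08 and -0.015 detrended. Of 7 inhibitors and phosphatases, 3 were higher, against 17% of all genes, and 2 when detrended, against 9.85%. Ptprs, a receptor tyrosine phosphatase, was at 0.50 and 0.65, and Rb1cc1, the FAK-binding protein FIP200, at 0.11 and 0.45. Detrended, Ptprs was at 0.35 and 0.24 and Rb1cc1 at -0.12 and 0.02.

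Under norepinephrine 16 of the 50 genes were lower in both lines and 2 higher, against 9.95% and 6.95% of all genes. Together these were 36% of the list, against 16.9% of all genes and 33.6% of those with a mean CPM of 50 or more. The list holds genes above and below that level. The list's median was -0.18 for shNC and -0.08 for shFAK, against -0.0003 in both lines over all genes. Detrended, the list's median was -0.053 and -0.0437, against 0.0092 and -0.02 over all genes. The genes with the mean ratios farthest from 0 were Arhgap5 (-0.43 in shNC and -0.42 in shFAK), Trio (-0.59 and -0.225) and Sos1 (-0.59 and -0.20). Detrended, they were at -0.11 and -0.27, at -0.40 and -0.22, and at -0.34 and -0.08. Arhgap5 is a GTPase-activating protein, and Trio and Sos1 are exchange factors. Detrended, 6 were lower and 1 was higher, against 6.42% and 3.47% of all genes.

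**Figure D4:**
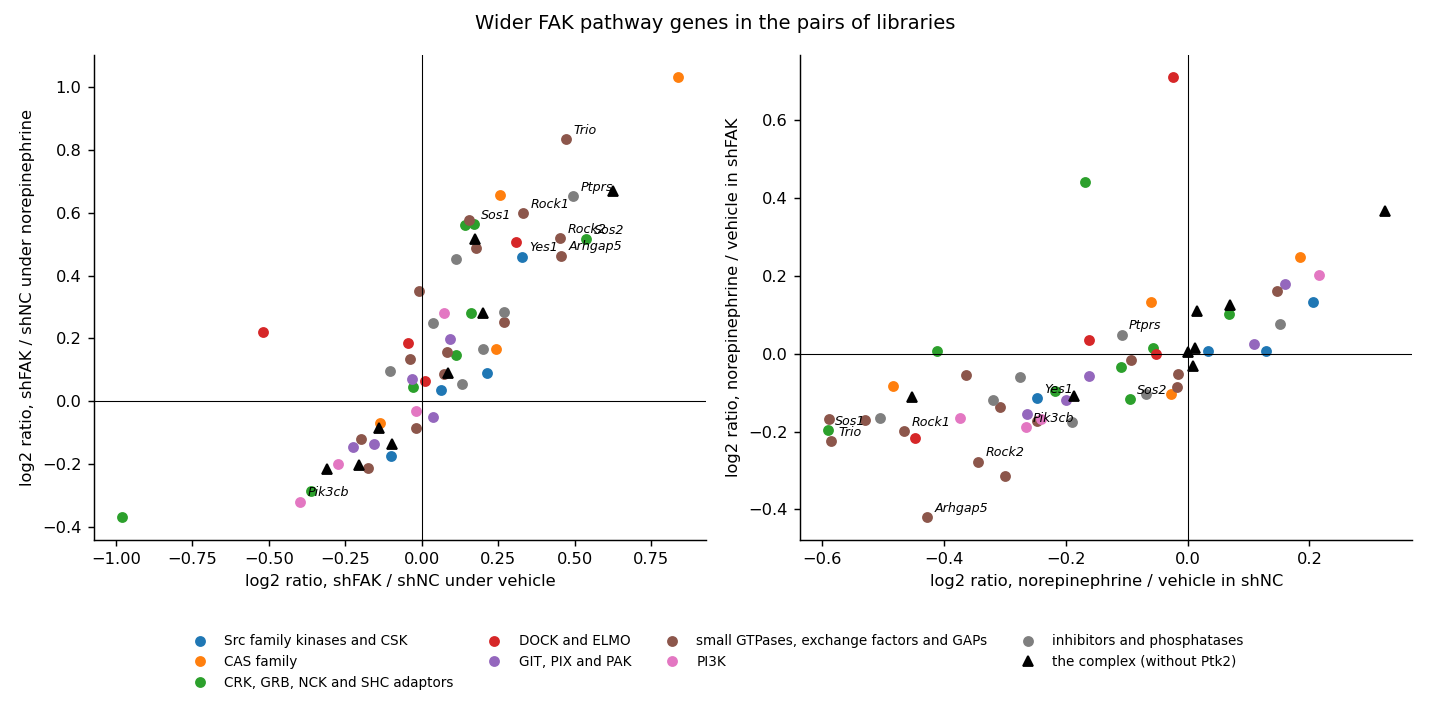
Log2 ratios of the 50 measured genes of the wider list, coloured by role, and of the complex without Ptk2 (triangles), with the hairpin pairs on the left and the norepinephrine pairs on the right; each point is 1 gene and the 2 axes of a panel share no library. Trio is at 0.47 and 0.83 in the hairpin panel, and Arhgap5 near -0.42 on both axes of the norepinephrine panel.

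The protein-coding genes whose levels ran most like Ptk2 were sought among 9383 that reached a mean of 5 CPM, by the Euclidean distance of log2 CPM over the 4 libraries after centring each gene. They were Krt4 (distance 0.109), Tigit (0.122), Rdh11 (0.2365) and Spryd4 (0.341). Their hairpin log2 ratios ran from -1.25 to -0.87, against -1.29 and -1.19 for Ptk2. Nearest to Ptk2b were Clip2 (0.0764), A4galt (0.0947), Ggt1 (0.114) and Orm1 (0.118), with hairpin ratios from 0.53 to 0.74 and norepinephrine ratios from 0.27 to 0.47. Likeness over 4 libraries is a description. After detrending, 2 of the 4 genes nearest to Ptk2 and 0 of the 4 nearest to Ptk2b were the same.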

How the data were processed

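Raw counts of reads per gene, with coordinates and gene length, were deposited by the authors in 1 table. The build mm10 and the tools featureCounts 1.5.0-p3 and HISAT2 2.0.5 come from the submitters' processing notes; the annotation release, strand setting and treatment of multi-mapping reads are not given in the sources used here. Columns were matched to samples by title, with 1 library of 23410486 to 29948640 counts per group, and 0 per-sample columns were left unused. In R 4.3.3 with edgeR 4.0.16 (DESeq2 1.42.0 as an alternative), TMM scaling was applied, genes with a CPM of at least 1 in at least 1 library were kept, and log2 ratios used a prior count of 2. Percentages of a control level used none. Intervals were exact 99% Clopper-Pearson intervals. The additive model was fitted with glmQLFit and Benjamini-Hochberg adjustment over all kept genes. Trends were natural splines with 5 degrees of freedom on log gene length and transcript GC content, available for 99.9% of kept genes. Similar genes were sought with minimap2 in GENCODE M21, whose coordinates equalled the table's for 95.2% of shared identifiers. Sequence was read from the same release.

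Named genes were the 10, up to 3 per role of the wider list by mean hairpin ratio, 3 by mean norepinephrine ratio, and the 4 nearest profiles, with a mean CPM of at least 1 (5 for profiles). Elmo2, Arhgef12, Gm12791, Gm11702 and listed genes too low to test are named outside this rule, after their values were seen. Some genes that the rule or the lists name are not reported here. The members, lists and tests were chosen with earlier results of these data known. The alternatives were other scalings, filters, prior counts, interval levels, trends and tests. The scripts were tested on simulated data.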

Additional observations from a re-analysis of the deposited data

How the results depend on the processing

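No paired analysis was possible because each group had 1 library and the labels carry no replicate numbers; leaving out a library would leave a group empty. The settings for the wider list and the nearest profiles were added after the data had been seen. The count of genes past the interval rule in both hairpin pairs (8) stayed within 1.5 times, and that past the 2-fold size rule (1) did not change, under the scalings, trends and interval levels tried. The count in both norepinephrine pairs (1) was 2 with DESeq2 size factors, 2 with upper-quartile factors, 4 with length detrended, 2 with length and GC detrended and 4 with 95% intervals. Over all genes 6.95% were higher and 10.2% lower with DESeq2 size factors, and 9.09% and 7.89% with upper-quartile factors. With length detrended these shares were 4.44% and 7.73%, and with length and GC 3.47% and 6.42%. Genes with differing responses (1) were 2 with library size alone, 2 with length and GC detrended and 2 with 95% intervals. Ptk2 under norepinephrine was at 40.4% of shNC with length detrended and 40.2% with length and GC. Genes called by the additive model for hairpin (5) were 2 without a filter, 1 with DESeq2 and 2 with a 1.2-fold threshold. The shares of all genes called were 5.95%, 13.5% and 9.29% in that order. For norepinephrine (1) the genes called were 2 with upper-quartile factors (12.9% of all genes) and 2 with length detrended (5.21%). They were 0 without a filter, with DESeq2 (0.704% of all genes) and with the 1.2-fold threshold (0.696%). Without a filter edgeR called 0 of 27256 genes for norepinephrine, and 2 of the 10 had an unadjusted p under 0.05.

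For the wider list, the counts for hairpin (16 higher, 6 lower) were 7 and 2 of 28 without genes that match another, 7 and 11 with length detrended and 7 and 10 with length and GC, and 3 were lower with library size alone. For norepinephrine (2 higher, 16 lower) 10 were lower without matching genes, 4 were higher with upper-quartile factors, 10 were lower with length detrended, and 1 and 6 with length and GC. Over all genes the hairpin shares were 9.92% higher and 20.8% lower with length detrended, and 11.7% lower with library size alone. The norepinephrine shares were 9.09% higher with upper-quartile factors, and 7.73% lower with length detrended. Of the 4 genes nearest to Ptk2, 2 were kept with either trend taken off, and 0 of those nearest to Ptk2b. Of 205 log2 ratios of named genes, 43 changed sign with length and GC detrended, 14 of them with an interval of their own that left out 0. The values of these 14 are given with length detrended and with length and GC detrended, in that order. Hairpin under vehicle: Pak2 -0.0060 and -0.0125. Hairpin under norepinephrine: Git1 -0.0183 and -0.0204, Dock5 -0.18 and -0.18, Pak2 -0.0085 in both, Pik3ca -0.0089 and -0.0150. Norepinephrine in shNC: Arhgef7 0.12 and 0.0684, Ptprs 0.20 and 0.0334, Krt4 -0.0199 and -0.0636. Difference of responses: Ptprs -0.059 and -0.11. With length and GC alone, norepinephrine in shNC gave Pak4 -0.0032 and Pik3r1 0.0203, and in shFAK Src -0.0594, Pak4 -0.0302 and Ptprs -0.0759. The cause was not tested for any of these. Detrending also moved the medians of all genes, so a change of sign is not by itself a change of place among genes.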

Other observations

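The norepinephrine responses of the wider list differed between the lines in 1 direction. By the 99% counting interval of the difference, 15 of 50 genes had a higher log2 ratio in shFAK than in shNC and 0 a lower one, against 11.9% and 11.1% of all genes. The largest difference among them was that of Elmo3 (0.74), at -0.0249 in shNC and 0.71 in shFAK with 97 to 156 counts per library. Next among the 15 came the RhoA exchange factor Arhgef12 (0.42), Sos1 (0.39) and Trio (0.36), and each of these 3 had a norepinephrine ratio below 0 in both lines. The Spearman correlation of the difference with gene length over all genes was 0.38. Detrended, 8 genes were higher and 5 lower, against 5.04% and 13% of all genes. This count and the genes named here were chosen after the values were seen, and have no replicate check. Of the genes named, Arhgef12 and Elmo3 match another annotated gene.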
